A study of Homo sapiens with 45 samples.

Results

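FOXM1 was silenced alone in SUDHL6, a human diffuse large B-cell lymphoma line of germinal-centre type, and its transcriptome was read on Illumina bead arrays 20 h after nucleofection. The comparison held 7 of the 45 arrays of the series: 3 arrays titled siFOXM1 and 4 arrays titled siNT4, the non-target control, both without the letter A in the title and without a second siRNA. Each sample was made from cells that had received 80 pmol of siRNA. FOXM1 was silenced with a SmartPool, which is a mixture of several siRNAs against 1 transcript, whereas siNT4 is a control without a target. A single cell line at 1 time point is the model. The labels do not state whether replicates came from separate cultures, and the spread behind every p-value is that between arrays and may be technical. The series silences candidate drivers of the step by which follicular lymphoma becomes diffuse large B-cell lymphoma. Groups used for reference were siHMGA1, siTFDP1 and siATF5 of the same set (3 arrays each), siHMGA1+siFOXM1 (3) with its control siNT4+siNT4 (2), and, in a second set whose titles carry an A (set A), siFOXM1 (3) with siNT4 (3) and siNFYB+siFOXM1 (3) with siNT4+siNT4 (3).

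FOXM1 is a forkhead transcription factor that is made as cells enter the cycle and acts mainly in G2. It is brought to promoters of late cell-cycle genes by the MuvB complex and B-MYB, which bind a short element called CHR (cell cycle genes homology region), often beside CCAAT boxes held by NF-Y. Its targets include mitotic cyclins, kinesins, kinetochore proteins and mitotic kinases. Germinal-centre B cells divide fast and make much FOXM1.

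The promoters of 3 genes on which the results below turn are printed here to show which of these elements they carry. NEK2, a kinase that splits centrosomes before mitosis, had the smallest p of all genes in the comparison, on the low side. TOP2A, the topoisomerase that untangles chromosomes, was on the high side in every comparison with FOXM1 siRNA. TYMS, thymidylate synthase, is an S-phase gene used for contrast. Windows run from 250 bases before to 50 after the annotated start (RefSeq, GRCh38.p14), NEK2 at chr1:211675572-211675871 (minus strand), TOP2A at chr17:40417847-40418146 (minus strand) and TYMS at chr18:657403-657702 (plus strand). Capitals mark CHR letters (TTTGAA or TTCGAA) and CCAAT boxes (CCAAT) in NEK2 and TOP2A, and E2F-type letters (TTTGGCGC, TTTCCCGC, TTTGCCGC or TTTCGCGC) and CCAAT boxes in TYMS, on either strand.
NEK2: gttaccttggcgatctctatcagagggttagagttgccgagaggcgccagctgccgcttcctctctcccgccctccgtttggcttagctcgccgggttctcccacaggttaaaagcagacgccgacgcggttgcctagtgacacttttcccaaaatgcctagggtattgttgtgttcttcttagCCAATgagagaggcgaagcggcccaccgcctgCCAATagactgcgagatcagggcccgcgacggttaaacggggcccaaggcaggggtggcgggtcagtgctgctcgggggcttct
TOP2A: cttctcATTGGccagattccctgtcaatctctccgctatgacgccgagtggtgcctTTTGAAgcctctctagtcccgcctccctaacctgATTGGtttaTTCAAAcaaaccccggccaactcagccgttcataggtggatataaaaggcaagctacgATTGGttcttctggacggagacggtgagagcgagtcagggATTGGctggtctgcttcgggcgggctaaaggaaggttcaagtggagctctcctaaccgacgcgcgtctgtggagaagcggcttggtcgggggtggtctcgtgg
TYMS: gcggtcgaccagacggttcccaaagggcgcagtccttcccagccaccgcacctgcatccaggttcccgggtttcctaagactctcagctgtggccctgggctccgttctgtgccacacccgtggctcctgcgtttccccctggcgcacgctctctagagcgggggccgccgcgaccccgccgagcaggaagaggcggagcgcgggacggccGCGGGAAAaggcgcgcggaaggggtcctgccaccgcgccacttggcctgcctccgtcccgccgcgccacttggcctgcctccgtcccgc
The TOP2A window held 2 CHR matches and 4 CCAAT matches, none of which overlap. The NEK2 window held 2 CCAAT matches and 0 CHR matches. The TYMS window held 1 E2F-type match, 0 CCAAT matches and 0 CHR matches. Over all 27305 promoters in the table, 16.6% held the CHR letters, 35.7% a CCAAT box and 3.33% an E2F-type match. A list of 48 G2/M genes of the FOXM1 type had 42 members with a window, of which 69.0% held CHR letters, 76.2% CCAAT and 9.52% an E2F-type match. A match describes the letters and is not evidence of binding.

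The values were log2 levels deposited by the authors, with array medians of 6.95 to 6.98 and a lower limit near 7, so differences of genes near 7 may be compressed. Probes more than 0.5 log2 above the array median made up 26.2%, 28.6% and 25.1% of all probes in siFOXM1 replicates 1, 2 and 3, and 25.2% to 25.9% in siNT4. Replicate 2 of siFOXM1 also had the lowest median correlation with the other 6 arrays, 0.983, against 0.990 to 0.992 for the rest. B-cell markers were high, with CD79A at 14.2 in siFOXM1 and 14.0 in siNT4 and CD79B at 13.8 in siFOXM1 and 13.9 in siNT4, while PAX5 was not above background in either group. Of 10 T-cell markers 1 passed the filter, LCK at 8.22 in siFOXM1 and 8.33 in siNT4, and the CD3 chains CD3D, CD3E and CD3G lay at 6.77 to 6.95 in both. Fewer cells of one state and less RNA per cell cannot be told apart in such bulk samples.

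FOXM1 itself was lower in every siFOXM1 array than in every siNT4 array, by a small margin. Its level was 8.36, 8.26 and 8.10 in siFOXM1, against 8.53, 8.56, 8.51 and 8.46 in siNT4. The groups did not overlap, and replicate 3 of siFOXM1 was the lowest. The difference was -0.27 log2 (SE 0.09, 95% interval -0.445 to -0.09), or 83.0% of the control level, with limma's adjusted p = 0.297 over 8625 genes, so it did not pass that test. In an exact two-sided permutation test of this single gene p was 0.0286, the smallest that 35 splits of 3 against 4 arrays allow. A second, dimmer FOXM1 probe read 7.97, 7.999 and 7.65 in siFOXM1, against 8.22, 7.85, 7.69 and 7.79 in siNT4, overlapping groups with a difference of -0.01. With the mean of both probes the FOXM1 difference was -0.14. On the first probe FOXM1 read 8.399 to 8.63 in siHMGA1, 8.352 to 8.543 in siTFDP1 and 8.369 to 8.641 in siATF5. The siFOXM1 arrays, up to 8.362, thus overlapped those of siTFDP1. From the mean of these silencings siFOXM1 differed by -0.23 (limma's adjusted p = 0.299), so FOXM1 did not pass there either.

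The other 3 comparisons with FOXM1 siRNA used other control arrays and gave the same order. FOXM1 levels ran from 8.60 to 8.72 in siFOXM1 of set A, against 8.75 to 8.94 in its control (-0.19). They ran from 8.26 to 8.34 in siHMGA1+siFOXM1, against 8.59 to 8.79 in its control (-0.38). They ran from 8.46 to 8.62 in siNFYB+siFOXM1 of set A, against 8.73 to 8.92 in its control (-0.26). Each was an exact two-sided p of 0.1, the smallest these group sizes allow, and the p adjusted over the 4 tests was 0.1 for all of them. The silenced and control arrays did not overlap in any of the 4 pairs of groups. Averaged over the 4 comparisons (12 arrays with FOXM1 siRNA, 12 control arrays, an average chosen after the values were seen), FOXM1 fell by 0.28 log2 (SE 0.05, limma's adjusted p = 0.00199, lower in all 4 comparisons), and with the mean of both probes the adjusted p was 0.0603.

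**Figure D1:**
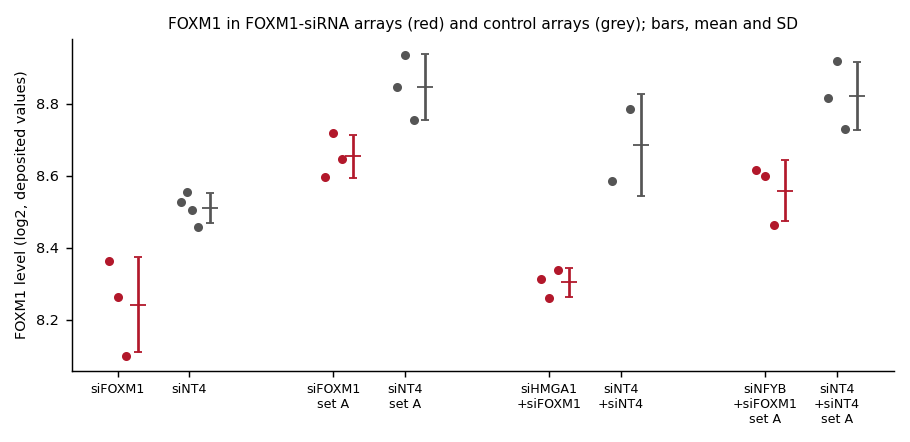
FOXM1 level (log2, deposited values) on each array with FOXM1 siRNA (red) and on its own control arrays (grey), with mean and SD beside the points. In each of the 4 pairs every red point lies below every grey one; for siFOXM1 against siNT4 the points span 8.10 to 8.36 and 8.46 to 8.56.

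The other silenced factors of the series were near their control levels on the siFOXM1 arrays, with 1 exception. ATF5, a stress-responsive bZIP factor, read 11.13, 11.14 and 10.98 in siFOXM1, against 10.93, 10.77, 10.68 and 10.87 in siNT4, 0.27 higher without overlap (adjusted p = 0.484). HMGA1 differed by -0.14 and TFDP1 by -0.02, both with overlapping groups. NFYB, near the lower limit, differed by -0.09.

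Across the transcriptome no gene passed the adjusted threshold of 0.05 in siFOXM1 against siNT4. The count was 0 of 8625 genes (0%) in limma, and 910 genes (10.6%) had an unadjusted p under 0.05, 439 higher (5.09%) and 471 lower (5.46%). Arrays of the 2 groups did not overlap for 621 genes (7.2%), 299 higher (3.47%) and 322 lower (3.73%). The changes were narrow: the median was -0.01, 5% of genes lay below -0.24 and 5% above 0.23, and the median SE was 0.11. The smallest adjusted p was 0.0792, and it was shared by NEK2, ENTPD6 and NEK3.

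Among the genes below control, NEK2 had the smallest p. Its level was 9.15, 8.80 and 9.03 in siFOXM1, against 9.60, 9.63, 9.47 and 9.67 in siNT4. All 3 siFOXM1 arrays lay below all 4 controls, replicate 2 the farthest. The change was -0.60 log2 (SE 0.12), or 0.661 of the control level on a linear scale, and -0.64 and -0.535 within the first and second runs of 12 arrays in deposited order, which are used here as the only batch label. A second NEK2 probe with a mean of 7.33 gave -0.02. NEK2 differed by -0.65 in siHMGA1+siFOXM1, -0.15 in siNFYB+siFOXM1 and -0.03 in siFOXM1 of set A against their own controls. In siTFDP1 and siATF5, which share the siNT4 arrays with siFOXM1, it differed from siNT4 by -0.63 and -0.46, and in siHMGA1 by 0.03.

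The other 11 genes with the smallest p on the low side belong to several processes. TLE4, a Groucho-type corepressor, had the next largest difference, -0.51, with levels of 7.14, 6.96 and 7.55 in siFOXM1, against 7.71, 7.79, 7.59 and 7.81 in siNT4. The third siFOXM1 array was close to the lowest control, and the other two were well below it. API5, an inhibitor of apoptosis, read 9.56, 9.26 and 9.53 in siFOXM1, against 9.71, 9.79, 9.89 and 9.95 in siNT4 (-0.38, adjusted p = 0.236). WWP2, a ubiquitin ligase, differed by -0.375, PRMT6, an arginine methyltransferase, by -0.37, EIF2B3, a subunit of the exchange factor eIF2B, by -0.40, and MSL2, a ubiquitin ligase of the MSL complex, by -0.42. Mitochondrial proteins of this group were MAIP1 at -0.32 and MPC1, a subunit of the pyruvate carrier, at -0.275. VAPA, a tether between the endoplasmic reticulum and other membranes, differed by -0.44, SACM1L, a phosphoinositide phosphatase, by -0.37 and the small nucleolar RNA SNORA73A, which has a near-identical copy, by -0.45. Other probes of VAPA gave 0.32 and -0.28, so its probes disagree. A second PRMT6 probe gave -0.15 and a second MPC1 probe 0.03. Several of these genes were also low in other silencings. SACM1L had a mean of 9.32 in siFOXM1 and 9.69 in siNT4, against 9.645 in siHMGA1, 9.27 in siTFDP1 and 9.35 in siATF5. In the same order, PRMT6 had 9.65 and 10.02, against 9.77, 9.74 and 9.69. VAPA had 7.51 and 7.95, against 7.82, 7.56 and 7.40. TLE4 had 7.22 and 7.725, against 7.635, 7.59 and 7.52, and so was lowest in siFOXM1.

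Among the genes above control, several of those with the smallest p had controls near the lower limit. SMAP2, with levels well above it, is a GTPase-activating protein for ARF that works in membrane traffic. It read 9.91, 9.86 and 10.26 in siFOXM1, against 9.59, 9.49, 9.63 and 9.67 in siNT4. The groups did not overlap and replicate 3 was the highest. The change was 0.42 (SE 0.09, adjusted p = 0.0954), and 0.35 and 0.61 within the first and second runs. A second SMAP2 probe with a mean of 7.68 gave 0.07. SMAP2 also lay above siNT4 in siHMGA1 by 0.39, in siTFDP1 by 0.31 and in siATF5 by 0.25, comparisons that share the siNT4 arrays, and siFOXM1 differed from the mean of these 3 silencings by 0.10 (SE 0.08).

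SPC24, a subunit of the NDC80 complex that joins kinetochores to microtubules, read 8.64, 8.63 and 8.62 in siFOXM1, against 8.21, 8.15, 8.43 and 8.15 in siNT4. The siFOXM1 arrays nearly coincided and lay above all controls, with a change of 0.39 (SE 0.09, adjusted p = 0.0954). TRIOBP, an actin-binding protein, was similarly tight at 8.45, 8.41 and 8.47 in siFOXM1, against 7.975, 8.004, 8.25 and 8.18 in siNT4 (0.34), but a second TRIOBP probe gave -0.255. LDAF1, a lipid droplet assembly factor, differed by 0.39 (second probe -0.10) and IKBKE, a kinase of innate immune signalling, by 0.40. The remaining genes on this side, ENTPD6 (0.58), NEK3 (0.50), FEZF1-AS1 (0.46), SLC9A3 (0.485), CYRIA (0.40) and CCL3L1 (0.41), had controls near the lower limit, between 6.81 and 7.36. CCL3L1 has near-identical copies that its probe may not separate. Some of these genes were also high in other silencings. SLC9A3 had a mean of 7.34 in siFOXM1 and 6.86 in siNT4, against 7.17 in siHMGA1, 6.945 in siTFDP1 and 7.36 in siATF5. In the same order, CCL3L1 had 7.57 and 7.15, against 7.22, 7.585 and 7.455. SPC24 had 8.63 and 8.235, against 8.37, 8.26 and 8.38, and so was highest in siFOXM1.

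**Figure D2:**
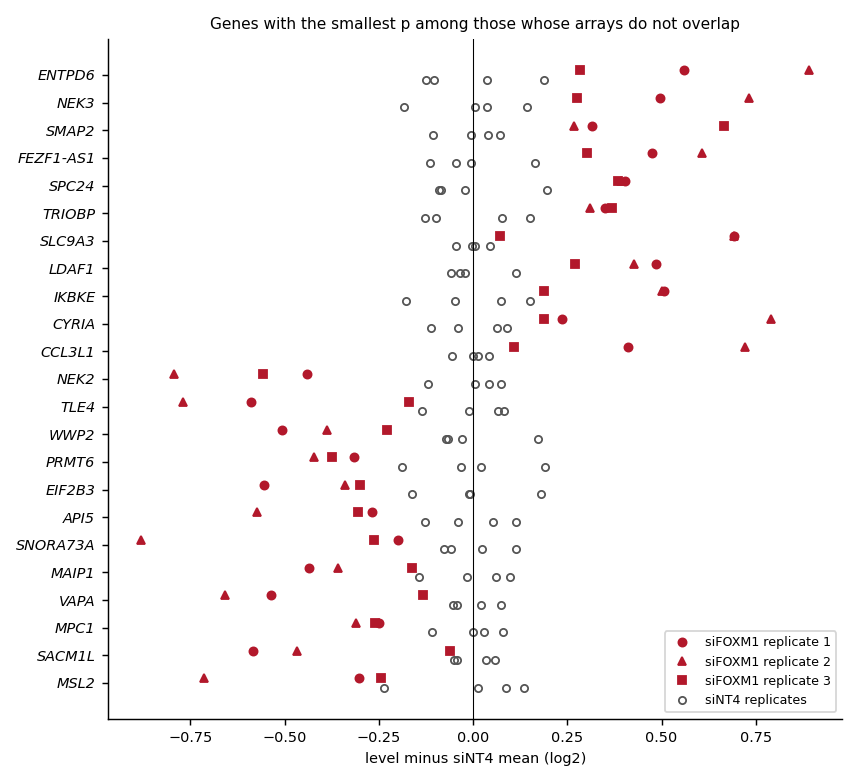
Level minus the siNT4 mean (log2) for the genes of smallest p on the high and the low side, none of which passed the adjusted threshold; filled red symbols are siFOXM1 replicates 1, 2 and 3, and open circles the siNT4 arrays. SPC24 and TRIOBP have tight siFOXM1 points, whereas in SLC9A3, TLE4, VAPA and SACM1L replicate 3 lies next to the controls.

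Replicate 3 of siFOXM1 lay in the second run in deposited order, and replicates 1 and 2 in the first, as did siNT4 replicates 1 and 2. Without replicate 3, 93 genes passed the adjusted threshold, 55 higher and 38 lower. In replicate 3 itself, 59 of the 93 differed from siNT4 in the same direction, with a median size in that direction of 0.04, against 0.52 over replicates 1 and 2. Of the 93 genes, 45 had a siNT4 mean below 7.5, near the lower limit, and 4 belonged to any of the 25 gene lists used here. The matching shares over all tested genes are not given here, so these counts do not set the 93 apart. Leaving out any other of the 7 arrays gave 0 genes. With the runs as a block 5 genes passed, and these were NEK2 (-0.57, adjusted p = 0.0194), SMAP2 (0.44, 0.0194), ENTPD6 (0.55), FEZF1-AS1 (0.48) and NEK3 (0.49). With each array's percentage of probes above background added to the fit 1 gene passed, SMAP2 (0.48, adjusted p = 0.0252).

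A list of FOXM1, MuvB subunits and linked factors lay on both sides of control. It held 13 genes, of which 11 were tested, FOXM1 itself among them but not B-MYB. The 11 also held E2F4, TFDP2, RBL1, NFYA and NFYC. A positive change was seen in 5 (45.5%, against 47% of all genes), FOXM1 not among them. The median of the 11 was 0.00 (-0.000663) beside -0.01 over all genes. LIN54, the DNA-binding subunit of MuvB, differed by 0.31 (8.57 in siFOXM1 replicate 2, and 7.62 and 7.53 in replicates 1 and 3, against 7.49 to 7.71 in siNT4), and without replicate 2 by -0.02. Kinases, cyclins and ligases that act on FOXM1 protein had 9 positive of 16 tested (56.2%), with a median of 0.03. CCNB1, cyclin B1, read 9.55, 9.42 and 9.76 in siFOXM1, against 9.78, 9.95, 9.78 and 9.81 in siNT4 (-0.25, adjusted p = 0.385), and CDKN2A, which encodes the CDK inhibitor p16, differed by 0.26. CDK1 differed by -0.01 and PLK1, the mitotic kinase that activates FOXM1, by 0.165.

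The G2/M genes of the FOXM1 type also lay on both sides of control. All 48 listed were tested, 0 passed, 23 had a positive change, and the median was -0.01, the same to 2 decimals as over all genes. The arrays did not overlap for 7 higher members (14.6%, against 3.47% of all genes) and for 4 lower ones (8.33%, against 3.73%). On the high side were TOP2A (0.315), CDCA3, a trigger of mitotic entry (0.33), the CDK-binding protein CKS2 (0.295), the ubiquitin-conjugating enzyme of the anaphase-promoting complex UBE2C (0.27), the spindle assembly factor TPX2 (0.20), the histone chaperone HJURP (0.17) and the kinetochore motor CENPE (0.15). On the low side, besides NEK2 and CCNB1, were CEP55, an abscission protein (-0.29), and the kinesin KIF20A (-0.215). Against the same siNT4 arrays, CEP55 differed by -0.26 in siHMGA1, -0.16 in siTFDP1 and -0.37 in siATF5. KIF20A differed by -0.19, -0.28 and -0.25, and CCNB1 by -0.02, -0.08 and -0.36, in the same order. From the mean of these silencings, siFOXM1 differed by -0.03 for CEP55, 0.02 for KIF20A and -0.10 for CCNB1. AURKB, the kinase of the chromosomal passenger complex, was among the highest at 0.335 with overlapping groups. The mean level of the whole list was 9.66, 9.57 and 9.69 in siFOXM1, against 9.62, 9.71, 9.55 and 9.63 in siNT4, and the group ranges overlapped.

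TOP2A and UBE2C show the high side by array. TOP2A read 11.61, 11.78 and 11.91 in siFOXM1, against 11.58, 11.50, 11.33 and 11.40 in siNT4 (0.315, SE 0.09, adjusted p = 0.286). UBE2C read 11.47, 11.52 and 11.36 in siFOXM1, against 11.17, 11.29, 11.22 and 11.02 in siNT4 (0.27, SE 0.09, adjusted p = 0.297). Both sets of siFOXM1 arrays lay above all controls, TOP2A by a narrow gap. Within the list, the 29 genes with CHR letters in the window had a median change of -0.01 and the 13 without them -0.11. Among all tested genes with a window, the 846 with CHR letters (12% of 7035) had a median of -0.01, and so had the rest.

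Genes of G1/S and replication had 11 positive of 29 tested (37.9%, against 47% of all genes) and a median of -0.01. MCM10, a replication initiation factor, read 9.42, 9.24 and 9.43 in siFOXM1, against 9.68, 9.58, 9.51 and 9.63 in siNT4 (-0.24, adjusted p = 0.373). UHRF1, which maintains DNA methylation, differed by -0.30 with overlapping groups. Against the same siNT4 arrays, MCM10 differed by -0.12 in siHMGA1, -0.38 in siTFDP1 and -0.54 in siATF5. UHRF1 differed by -0.01, -0.31 and -0.65 in the same order. The salvage kinase TK1 differed by 0.23. DNA repair genes, among which FOXM1 has known targets, had 5 positive of 14 tested (35.7%, against 47% of all genes) and a range of -0.13 to 0.12. They had 0 members without overlap, against 7.2% of all genes, and a list of 14 is too small to tell these shares apart. Antioxidant genes, another class tied to FOXM1, had 6 positive of 13 (46.2%). There TXNRD1, thioredoxin reductase, differed by -0.22 without overlap (7.69% of the list, against 3.73% of all genes).

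Genes of glycolysis and the hypoxia response lay above control more often than genes at large. Of 27 tested, 22 had a positive change (81.5%, against 47% of all genes), the median was 0.15, beside -0.01 over all genes, and 0 passed the adjusted threshold. The arrays did not overlap for 8 members, all higher (29.6%, against 3.47% of all genes). ALDOC, aldolase C, had the largest difference of the list, 0.62 (SE 0.19, adjusted p = 0.297), with 11.71, 11.72 and 11.90 in siFOXM1, against 11.57, 10.81, 11 and 11.26 in siNT4. The groups did not overlap, but the siNT4 arrays were spread widely and siNT4 replicate 1 was close to the siFOXM1 arrays.

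LDHA, lactate dehydrogenase A, read 14.69, 14.62 and 14.69 in siFOXM1, against 14.54, 14.38, 14.38 and 14.36 in siNT4 (0.25, SE 0.09, adjusted p = 0.334). PGAM1 (0.345), ALDOA (0.22), GAPDH (0.20) and TPI1 (0.20), all glycolytic enzymes, were also above control without overlap, as were VEGFA, the angiogenic growth factor (0.33), and EGLN1, a HIF prolyl hydroxylase (0.28). PFKM, a phosphofructokinase subunit, and PDK1, which inhibits pyruvate dehydrogenase, differed the other way by -0.32 and -0.31. The list's median was 0.17 in the first run and 0.19 in the second. It was 0.08 without siFOXM1 replicate 3 and 0.09 without siNT4 replicate 2. Against their own controls the list's median was 0.01 in siFOXM1 of set A, 0.16 in siHMGA1+siFOXM1 and 0.06 in siNFYB+siFOXM1. Against the shared siNT4 arrays it was 0.03 in siHMGA1, 0.17 in siTFDP1 and -0.13 in siATF5.

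Most lists of B-cell identity and immune function had medians near 0. MHC class II genes had 12 positive of 15 (80%, against 47% of all genes) and a median of 0.09, beside -0.01 over all genes. That median ran from 0.09 to 0.14 on leaving out 1 array. Against their own controls it was -0.01 in siFOXM1 of set A, 0.12 in siHMGA1+siFOXM1 and 0.005 in siNFYB+siFOXM1. Against the shared siNT4 arrays it was 0.01 in siHMGA1, 0.05 in siTFDP1 and 0.06 in siATF5. HLA-DMA, the peptide-loading chaperone subunit, differed by 0.26 and the invariant chain CD74 by 0.17 without overlap, whereas CTSS, the protease that trims that chain, differed by -0.37. Germinal-centre genes had 11 positive of 18 (61.1%) and a median of 0.03. The B-cell receptor list had 8 positive of 12 (66.7%), among them CD79A at 0.20, and NF-kB and activation genes 5 of 9 (55.6%). XBP1, a factor of plasma cells and of the unfolded protein response, read 9.46, 9.14 and 9.32 in siFOXM1, against 9.53, 9.57, 9.67 and 9.56 in siNT4 (-0.28, adjusted p = 0.297), without overlap.

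In lists tied to cell stress and survival, p53 target genes had 3 positive of 11 (27.3%, against 47% of all genes) and a median of -0.09. That median ran from -0.15 to -0.04 on leaving out 1 array and was 0.01 in siFOXM1 of set A. TP53I3 (-0.27) and the phosphatase PPM1D (-0.24) were lower without overlap (18.2%, against 3.73% of all genes). TP53INP1 (0.19) was higher without overlap (9.09%, against 3.47%). A list of 11 is too small to tell these shares apart. BCL2, the survival gene, read 7.80, 7.94 and 7.74 in siFOXM1, against 7.31, 7.47, 7.54 and 7.57 in siNT4 (0.36, adjusted p = 0.331), and the groups did not overlap. From the mean of siHMGA1, siTFDP1 and siATF5, siFOXM1 differed by -0.04 for BCL2. Against its own control BCL2 differed by -0.08 in siFOXM1 of set A, 0.30 in siHMGA1+siFOXM1 and 0.20 in siNFYB+siFOXM1. Other BCL2 probes, none above background, gave -0.07, 0.175 and -0.05. Unfolded protein response genes had 4 positive of 17 (23.5%, against 47% of all genes) and cholesterol synthesis genes 8 of 13 (61.5%). Interferon response genes had 5 of 9 (55.6%), MHC class I genes 5 of 9 (55.6%), and MYC and ribosome genes 8 of 18 (44.4%). Of other forkhead factors, FOXO4 (0.20) and FOXK1 (0.12) lay above control without overlap. They were 20% of a list of 10 tested genes that includes FOXM1, against 3.47% of all genes. In none of the 25 lists did a member pass the adjusted threshold.

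**Figure D3:**
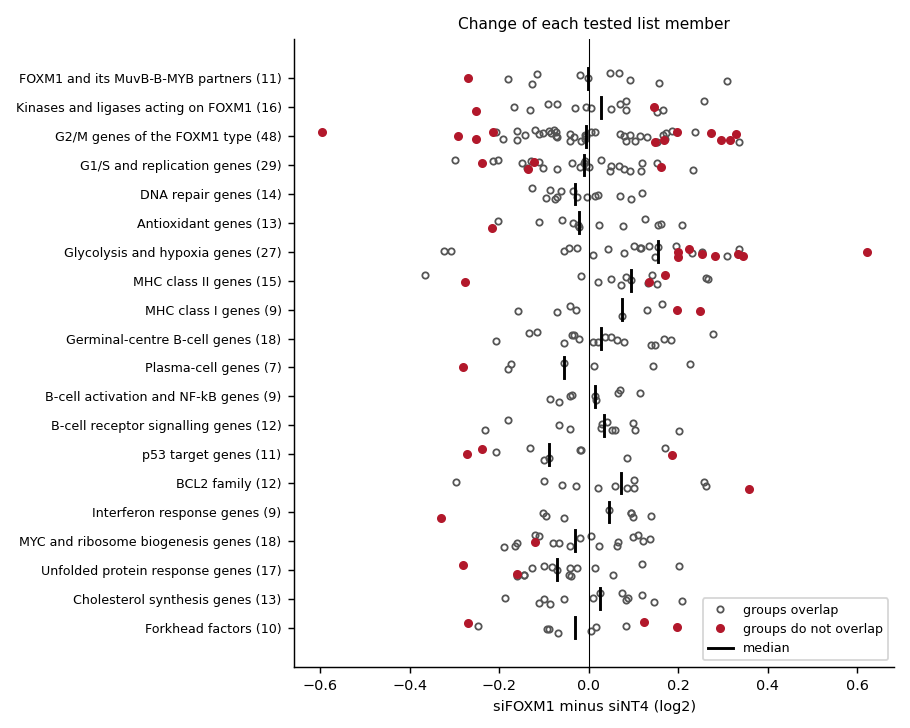
Change (siFOXM1 minus siNT4, log2) of every tested member of the lists with at least 7 tested members, whose number stands in parentheses. Red points are genes whose arrays do not overlap between groups and black bars are medians. The glycolysis and hypoxia list has a median of 0.15, and the FOXM1-type G2/M list is spread on both sides of 0, from -0.60 to 0.335.

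To set FOXM1 silencing against the silencing of other factors without the shared siNT4 arrays, siFOXM1 was compared directly with the mean of siHMGA1, siTFDP1 and siATF5. Here 10 of 8625 genes passed (0.116%), 9 higher (0.104%) and 1 lower (0.0116%), and 650 (7.54%) had an unadjusted p under 0.05. Of the 10, TOP2A and BIRC5 belong to the G2/M list and TYMS and CCNE1 to the G1/S and replication list. TFDP1 itself, the dimer partner of E2F factors, was higher by 0.93. It read 11.09 to 11.43 in siFOXM1, against 11.31 to 11.44 in siHMGA1, 10.18 to 10.35 in siTFDP1 and 9.30 to 9.59 in siATF5, and was lower on the siATF5 arrays than on those of its own siRNA. Against siNT4, TFDP1 differed by -1.06 in siTFDP1 (adjusted p = 2.04e-09) and by -1.86 in siATF5 (adjusted p = 5.31e-18), where ATF5 differed by -0.69 (adjusted p = 0.00284). TFDP1 was thus low in 2 of the 3 groups that siFOXM1 was set against.

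TOP2A was higher in siFOXM1 by 0.50 (SE 0.08, limma's adjusted p = 0.00122). Beside the 11.61 to 11.91 given for siFOXM1, it read 11.58, 11.32 and 11.24 in siHMGA1, 11.23, 11.23 and 11.24 in siTFDP1, and 11.12, 11.12 and 11.32 in siATF5. Every siFOXM1 array lay above all 9 others. Against each group alone, 1 gene passed against siHMGA1 (0.0116%), 5 against siTFDP1 (0.058%) and 186 against siATF5 (2.16%), and TOP2A passed against siTFDP1 (0.53) and siATF5 (0.58) and not against siHMGA1 (0.39, adjusted p = 0.231). MELK, a mitotic kinase, was higher by 0.45 (adjusted p = 0.00946, second probe 0.47), with 10.25, 10.26 and 10.36 in siFOXM1, against 9.85 to 10.24 in siHMGA1, 9.80 to 9.96 in siTFDP1 and 9.45 to 9.76 in siATF5. BIRC5, which encodes survivin of the chromosomal passenger complex, was higher by 0.40 (adjusted p = 0.0218), with 9.36, 9.41 and 9.48 in siFOXM1, against 9.06 to 9.33 in siHMGA1, 8.81 to 9.02 in siTFDP1 and 8.92 to 9.03 in siATF5. For both genes the siFOXM1 arrays lay above all 9 others but overlapped siNT4. The siNT4 arrays read 10.07 to 10.32 for MELK and 9.17 to 9.425 for BIRC5. Against siNT4, MELK differed by 0.08 in siFOXM1, -0.16 in siHMGA1, -0.32 in siTFDP1 and -0.62 in siATF5. BIRC5 differed by 0.115, -0.13, -0.40 and -0.32 in the same order.

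TYMS was higher by 0.50 (adjusted p = 0.0166), carried by siTFDP1 and siATF5: it read 10.67, 10.51 and 10.60 in siFOXM1, against 10.30 to 10.79 in siHMGA1, 9.71 to 10.11 in siTFDP1 and 9.70 to 9.88 in siATF5. FBXO43, an inhibitor of the anaphase-promoting complex, was higher by 0.47, but a second FBXO43 probe gave -0.01, and with the mean of both probes the difference was 0.23 (adjusted p = 0.273). Also higher was CCNE1, cyclin E1 of the G1/S transition, by 0.54 (adjusted p = 0.0299). CCNE1 rested partly on siFOXM1 replicate 2 (8.37, with 7.87 and 7.73 in the others). ADGRF1, an adhesion receptor (0.46), and FEZF1-AS1 (0.45) lay near the lower limit in all groups, and CTSS was the 1 lower gene (-0.455). Within the first and second runs in deposited order, TOP2A differed by 0.39 and 0.63, MELK by 0.43 and 0.49, BIRC5 by 0.365 and 0.48 and TYMS by 0.40 and 0.585. Within the second run CCNE1 (0.14), FEZF1-AS1 (0.07), ADGRF1 (0.06) and CTSS (-0.12) differed by much less than within the first (0.70, 0.66, 0.62 and -0.64).

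The G2/M list as a whole lay higher in siFOXM1 than in the mean of the other 3 silencings in 42 of 48 members (87.5%, against 51.6% of all genes), with a median of 0.16, beside 0.00401 over all genes, and 0.15 and 0.175 within the first and second runs. Of its 48 members 2 passed, TOP2A and BIRC5, beside 0.116% of all genes. It was higher in 34 members against siHMGA1, 41 against siTFDP1 and 43 against siATF5. The G1/S and replication list had 27 of 29 positive, a median of 0.11 and 2 called members, TYMS and CCNE1. The shift was not particular to these lists. Cholesterol synthesis genes had 12 of 13 positive (median 0.11), germinal-centre genes 15 of 18 (0.06) and glycolysis and hypoxia genes 22 of 27 (0.13). On the low side, p53 target genes had 3 of 11 positive (-0.05) and unfolded protein response genes 5 of 17 (-0.01). Against siNT4, which all 4 silencings share, the G2/M median was -0.01 in siFOXM1, -0.06 in siHMGA1, -0.13 in siTFDP1 and -0.25 in siATF5. Among the listed G2/M genes with a promoter window, the median of the direct difference was 0.20 for those with CHR letters and 0.02 for those without, against 0.0156 and 0.0034 among all tested genes with a window.

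The share of probes above background differed between arrays of these groups. In replicates 1, 2 and 3 it was 26.2%, 28.6% and 25.1% in siFOXM1 and 29.4%, 30.6% and 25.4% in siATF5. In the same order it was 27.1%, 25.9% and 26.1% in siTFDP1 and 26%, 25.2% and 25.3% in siHMGA1. In siFOXM1 and siATF5 the raised shares were those of replicates 1 and 2, which lay in the first run, and replicate 3 lay in the second. With this percentage in the fit 18 genes passed, and TOP2A (0.50), MELK (0.44), BIRC5 (0.40) and TYMS (0.495) were among them. With all 45 arrays TFDP1 was the 1 gene that passed. The number of genes called in the direct comparison depended on single arrays. It was 4 without siFOXM1 replicate 1, 4 without siFOXM1 replicate 2, 51 without siFOXM1 replicate 3 and 66 without siATF5 replicate 3. TOP2A and TFDP1 passed whichever of the 12 arrays was left out, CTSS in 11 of the 12 such fits, MELK, TYMS, FBXO43, ADGRF1 and FEZF1-AS1 in 10, BIRC5 in 8 and CCNE1 in 5.

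**Figure D4:**
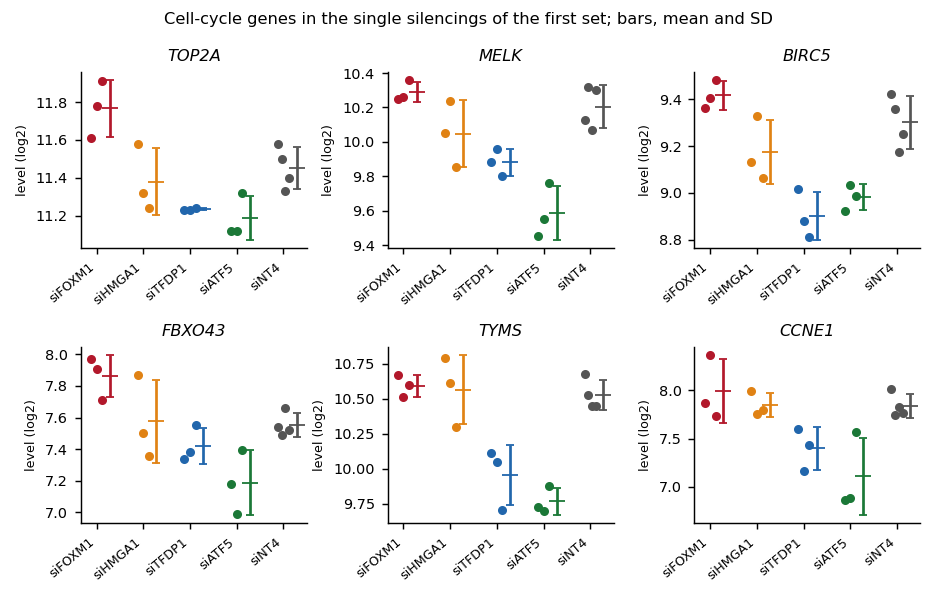
Level (log2) of 6 cell-cycle genes called in the direct comparison, on each array of siFOXM1, siHMGA1, siTFDP1, siATF5 and siNT4, with mean and SD beside the points. TOP2A, MELK and BIRC5 have their highest mean in siFOXM1 and their lowest in siTFDP1 or siATF5. For MELK and BIRC5 the siFOXM1 and siNT4 arrays overlap, and for TYMS siFOXM1, siHMGA1 and siNT4 overlap.

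Whether FOXM1 silencing did the same in set A was tested as the difference of the 2 changes. No gene passed (0 of 8625, 0%, in limma, with 415 or 4.81% at an unadjusted p under 0.05), and 3 passed without siFOXM1 replicate 3. The interval of this difference was wide for single genes: NEK2 differed by -0.57 (SE 0.18, adjusted p = 0.965) between sets, ENTPD6 by 0.55 (SE 0.18) and FOXM1 by -0.08 (SE 0.13). In set A itself 0 genes passed (0%) and 196 (2.27%) had an unadjusted p under 0.05. Across the 8625 genes the changes in the first set correlated with those in set A at 0.06, with siHMGA1+siFOXM1 at 0.42 and with siNFYB+siFOXM1 at 0.19. With the deposited-order runs as a block these were 0.06, 0.16 and 0.18. Genes are not independent replicates, and siHMGA1+siFOXM1 replicates 1 and 2 lay in the same run as siFOXM1 replicates 1 and 2 while its controls did not.

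In the mean over the 4 comparisons with FOXM1 siRNA, 11 genes passed (0.128%), 6 higher (0.0696%) and 5 lower (0.058%), with 957 (11.1%) at an unadjusted p under 0.05. Besides FOXM1, whose siRNA is shared by design, these were SMAP2, ALDOC, IDNK, IDH1, TOP2A and UBE2C on the high side and NEK2, API5, HMGA1 and AHCYL1 on the low side. HMGA1, a chromatin architectural protein, was there through 1 comparison in which it was itself a target (-1.06, against -0.14, 0.04 and -0.09 in the others).

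SMAP2 rose by 0.42 (SE 0.05, adjusted p = 1.17e-06), with 0.42 in siFOXM1, 0.28 in set A, 0.45 in siHMGA1+siFOXM1 and 0.54 in siNFYB+siFOXM1. API5 fell by 0.33 (SE 0.06, adjusted p = 0.00198), with -0.38, -0.25, -0.29 and -0.40 in the same order. TOP2A rose by 0.27 (SE 0.05, adjusted p = 0.00764), with 0.315, 0.22, 0.19 and 0.355. Every called gene except HMGA1 had the same sign in the 4 comparisons. The genes were picked by the mean of these same comparisons, so a shared sign adds no separate evidence. UBE2C rose by 0.24 (adjusted p = 0.0278), with 0.27, 0.12, 0.18 and 0.38. NEK2 fell by 0.36 (adjusted p = 0.00708), and its size was uneven, from -0.65 to -0.03. ALDOC rose by 0.475 (adjusted p = 0.0326), IDNK, a gluconokinase, by 0.30, and IDH1, the cytosolic isocitrate dehydrogenase, by 0.29, while AHCYL1, a partner of the IP3 receptor, fell by 0.23. From the mean of siHMGA1, siTFDP1 and siATF5, siFOXM1 differed by only -0.02 for AHCYL1, 0.10 for IDH1 and SMAP2, 0.16 for IDNK and 0.17 for UBE2C. The difference was -0.23 for API5, -0.24 for NEK2, 0.47 for ALDOC and 0.50 for TOP2A. IDH1 had a mean of 8.34 in siFOXM1 and 8.05 in siNT4, against 8.26 in siHMGA1, 8.18 in siTFDP1 and 8.29 in siATF5.

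SMAP2 and API5 passed in all 32 alternative fits of this mean, FOXM1 and NEK2 in 31 and TOP2A in 30. The other calls were lost more often: IDNK passed in 20 of the 32, UBE2C in 19, HMGA1 in 17, AHCYL1 in 14, ALDOC in 13 and IDH1 in 11. The number of genes called ranged from 4 to 28 when single arrays were left out, being 28 without siHMGA1+siFOXM1 replicate 3, 18 without siFOXM1 replicate 3, 4 without siNT4+siNT4 replicate 3, 5 without siFOXM1 replicate 2 and without siNFYB+siFOXM1 replicate 2, and 6 without siNT4+siNT4 replicate 2 of set A and without siNT4 replicate 1 of set A. It was 7 without siFOXM1 replicate 1, siFOXM1 replicate 2 of set A, siHMGA1+siFOXM1 replicate 1, siNT4+siNT4 replicate 2, siNT4+siNT4 replicate 3 of set A or siNT4 replicate 3 of set A. The G2/M list had a median of 0.04 in this mean, with 2 members called higher (TOP2A and UBE2C) and 1 lower (NEK2), and the glycolysis and hypoxia list a median of 0.11 with ALDOC called. A second UBE2C probe gave 0.04 and a second SMAP2 probe 0.06.

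**Figure D5:**
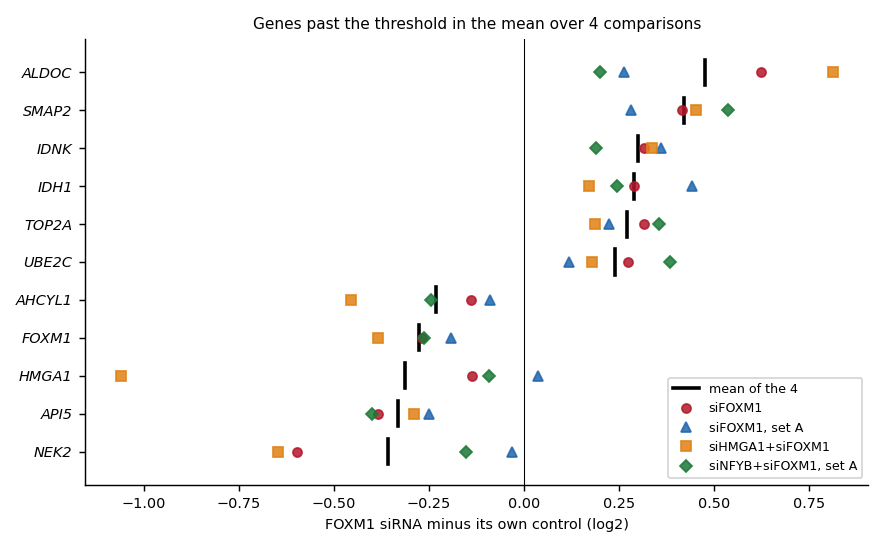
Change against its own control (log2) of the 11 genes called in the mean over 4 comparisons with FOXM1 siRNA, with 1 symbol per comparison and a black bar at their mean. Every gene except HMGA1 has all 4 symbols on 1 side of 0. NEK2 is at -0.60 and -0.65 in the first set and at -0.15 and -0.03 in set A, and HMGA1 rests on siHMGA1+siFOXM1.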

How the data were processed

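Transcript levels of 45 arrays of SUDHL6 cells were taken from the log2 table of 45013 probes that the authors processed and deposited (range 6.28 to 16.28). Its background correction, normalization and exact log form, not given in the sources used here, decide how far differences near the lower limit are compressed. Raw intensities with detection p-values, also deposited, were left aside: no label ties its 90 columns, named by chip and position on 4 chips, to samples. Groups and replicate numbers came from the array titles.

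Gene names came from the platform annotation checked against RefSeq (GRCh38.p14): 28746 probes had 1 symbol, 8 several and 16259 none, and 0 symbols were updated. Probes lying over 0.5 log2 above their array's median in 3 or more arrays were kept (14524, of which 11089 had 1 symbol), and each of 8625 genes was read from its brightest probe by mean level. A linear model with limma 3.58.1 under R 4.3.3 (lmFit, eBayes, group means, two-sided, Benjamini-Hochberg over all 8625 genes, threshold 0.05) was fitted to 44 arrays. siTFDP1+siATF5 replicate 3, which belongs to neither group, was left out, since its median correlation with the other arrays was 0.735. With 3 and 4 arrays, their number limits the precision. The fit was tested on simulated data.

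Named genes were the silenced factors, the 12 of smallest p on each side among those whose arrays do not overlap (1 of the 12 on the high side, a sex-chromosome gene, is not described), up to 4 members of each of 25 lists and the genes past the threshold in the direct comparison. Other members of a list without overlap, and the genes of the mean over 4 comparisons, were chosen after their values were seen. The comparison, rule and lists were chosen with earlier results of these data known. Deposited-order runs of 12 arrays served as a batch term, and no source used here says whether a run is a chip. Replicate numbers did not pair the arrays: deviations of same-numbered siFOXM1 and siNT4 arrays correlated at 0.087, 0.066 and 0.15. Alternatives were another set of arrays, filter, probe rule, scaling, block or covariate, and each array left out. Promoter windows came from the RefSeq table.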

Additional observations from a re-analysis of the deposited data

Results flagged for a closer look

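Of 64 sets of 4 siNT4 values examined, 3 held a value set apart from the other arrays by Dixon's test at the 95% level, about as many as chance gives at 1 in 20. ADGRF1, an adhesion receptor near the lower limit, was 7.019 in siNT4 replicate 4, against 6.88 to 6.90 in the other siNT4 arrays. IDNK, a gluconokinase, was 8.303 in siNT4 replicate 1, against 7.97 to 8.01 in the others. The mean level of the MYC and ribosome biogenesis list was 10.49 in siNT4 replicate 3, against 10.4 to 10.41 in the others.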

How the results depend on the processing

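In siFOXM1 against siNT4 the count of genes past the threshold was 0 with all 45 arrays, with the 7 arrays alone, without a filter, with the stricter filter and with the mean of a gene's probes. It was 1 after quantile normalization (SMAP2), 1 with the percentage of probes above background in the fit (SMAP2), 5 with the deposited-order block, and 0 to 93 on leaving out 1 array (93 without siFOXM1 replicate 3). The replicate block gave 1 gene, NEK3 (0.55, adjusted p = 0.00934), although the numbers did not pair the arrays: no siFOXM1 array correlated best with the siNT4 array of its own number. The FOXM1 difference ranged from -0.33 to -0.20 on leaving out 1 array and from -0.32 to -0.14 otherwise, never past the threshold, with adjusted p of 0.159 to 1. The direct comparison gave 1 gene with all 45 arrays, 27 with the deposited-order block, 18 without a filter, 6 with the stricter filter, 18 with that percentage in the fit and 4 to 66 on leaving out 1 array (66 without siATF5 replicate 3). The mean over 4 comparisons gave 4 genes with all 45 arrays, 7 without a filter, 7 with the mean of probes, 5 with that percentage in the fit and 4 to 28 on leaving out 1 array. The difference between sets gave 0 to 3 genes on leaving out 1 array (3 without siFOXM1 replicate 3) and 0 otherwise. TFDP1 in siFOXM1 turned sign, to 0.00138 with the deposited-order block, 0.008 with that percentage in the fit, and between -0.084 and 0.0865 on leaving out 1 array (0.00891 without siNT4 replicate 4). LIN54 ran from -0.0237 to 0.495 and CCNE1 from -0.0356 to 0.282 on leaving out 1 array, the lowest without siFOXM1 replicate 2. The cause of these shifts was not tested.

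Groups of 3 and 4 arrays, signal near the lower limit for many genes, and a small difference in FOXM1 on 1 of its 2 probes limit these comparisons.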
